A study of Mus musculus with 2 samples.

Results

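The histone genes of native mouse eosinophils were examined in 2 RNA-seq libraries. Members were taken by symbol alone: every gene whose symbol begins with Hist1h, Hist2h, Hist3h or Hist4h (clustered genes), and every gene whose symbol begins with H2af or H3f3 or is H1f0 or H1fx (variant genes). This gave 79 of the 23343 genes in the tables, of which 67 were clustered and 12 were variant genes. Eosinophils are granulocytes, and here they had been sorted from pooled bone marrow of C57BL6J mice as cells positive for CCR3, a chemokine receptor, and SiglecF, a lectin. The mice were naive and untreated, and the labels name no other genotype, age or agent. Both libraries, called sort 1 and sort 2, are independent sorts of 1 group, so there was no comparison between conditions. The labels give neither the number of mice in a pool nor whether the sorts shared animals, and an SD over 2 sorts is itself imprecise.

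Histones wrap DNA into nucleosomes, with H2A, H2B, H3 and H4 in the core and H1 as the linker. The clustered genes supply histones while DNA is being copied. Their messenger RNAs normally end in a stem-loop bound by Slbp and carry no poly(A) tail, whereas the variant genes make polyadenylated messages at other times as well. Selection on poly(A), which was used for these libraries, keeps RNA with a tail. How much untailed histone RNA the cells held was not tested.

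The stem-loop was searched in GENCODE transcripts as a 16-base element after the stop codon, GGNNCTTNTNAGNNCC with N for any base, on the transcript's own strand, with the requirement that the outer 6 bases on each side pair. It was present in 45 of 67 clustered genes (67.2%), in 1 of 12 variant genes and in 5 of 20252 other protein-coding genes (0.0247%). The following sequences belong to the clustered genes with the highest levels, to both clustered H3 genes that differed upward in sort 2, and to H2afx, the variant gene that carries the element. Capitals mark the pairing arms, the lower-case letters between them are the loop, and 5 flanking bases are kept on each side.
Hist1h4d: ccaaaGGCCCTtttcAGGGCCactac
Hist2h4: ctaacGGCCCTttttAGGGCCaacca
Hist1h1c: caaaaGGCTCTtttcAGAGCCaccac
Hist1h1e: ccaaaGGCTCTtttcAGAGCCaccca
Hist2h3c1: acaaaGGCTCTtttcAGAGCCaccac
Hist1h3g: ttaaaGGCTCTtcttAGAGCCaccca
H2afx: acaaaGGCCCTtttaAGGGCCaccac

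On GRCm38, the build that mm10 names, these lie at chr13:23581945-23581970 for Hist1h4d, chr3:96262934-96262959 on the minus strand for Hist2h4, chr13:23739507-23739532 for Hist1h1c, chr13:23621777-23621802 on the minus strand for Hist1h1e, chr3:96247322-96247347 for Hist2h3c1, chr13:23535884-23535909 for Hist1h3g and chr9:44335235-44335260 for H2afx, all in the transcribed sequence after the stop codon. The commonest form, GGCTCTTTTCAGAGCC, was shared by 25 clustered genes of the H1, H2A, H2B and H3 families. The 12 H4 genes with a stem-loop used other arms, and 7 of them carried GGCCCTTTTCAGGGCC, the form shown for Hist1h4d. H2afx had the arms of that H4 form with a different loop.

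Where annotated transcripts stop also separated the classes. A poly(A) signal, AATAAA or ATTAAA in the last 50 bases, was found in 16 of 67 clustered genes (23.9%), in 10 of 12 variant genes (83.3%) and in 74.3% of other protein-coding genes. Of the 45 clustered genes with a stem-loop, 23 had an annotated transcript that ran at least 100 bases beyond it and 22 had one that ended sooner. The other 22 had no stem-loop in the annotated transcript, and in 17 of these the annotation ended within 60 bases of the stop codon, while 1, Hist3h2bb-ps, has no annotated stop codon. The absence of a match says only that the letters are not in the annotated sequence. The deposited rows reached the stem-loop for 24 of the 45 genes.

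Levels are given as RPKM, reads scaled to transcript length and to the size of the library, as the authors deposited them. In clustered rows with at least 30 reads that span under 1000 bases, count and RPKM together imply that the authors divided by a read total of 40.5 (in units of 1e6 reads) for sort 1 and of 40.6 for sort 2. The tables themselves held 10087743 and 9264150 reads, so RPKM values here are low in both sorts alike. Detection required an RPKM of 1 or more in each sort. By that rule 22 of 67 clustered genes (32.8%) and 8 of 12 variant genes (66.7%) were detected, beside 30.2% of all genes in the tables. An RPKM of 5 or more in each sort was reached by 5 clustered and 4 variant genes, beside 11.6% of all genes.

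The variant genes as a group stood above the clustered genes in both sorts. The median variant gene was at 3.55 RPKM in sort 1 and 2.78 in sort 2 (3.17 ± 0.549, SD, n = 2 sorts). The median clustered gene, with genes at 0 included, was at 0.454 and 0.360 (0.407 ± 0.0666, SD, n = 2). On the log2(RPKM + 1) scale, which compresses low levels, the medians differed by 1.63 in sort 1 and 1.47 in sort 2 (1.55 ± 0.11, SD, n = 2). The difference was larger than the spread between the sorts, but with 2 libraries an exact two-sided sign test cannot give a p below 0.5.

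The transcripts of clustered genes resemble each other, and this bears on how reads can be assigned. The part of each GENCODE transcript inside the deposited row was divided into 50-base stretches. A stretch was unique when no GENCODE transcript elsewhere in the genome held it on either strand. Transcripts overlapping the row did not count as elsewhere. The median clustered gene had 42.6% unique stretches, against 94.0% for the median variant gene. When only members with at least 50% unique stretches were kept (28 clustered and 11 variant genes), the difference of medians was 1.01. Read length, and what was done with reads that align to several places, are not known here, so levels of near-identical members are uncertain.

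**Figure D1:**
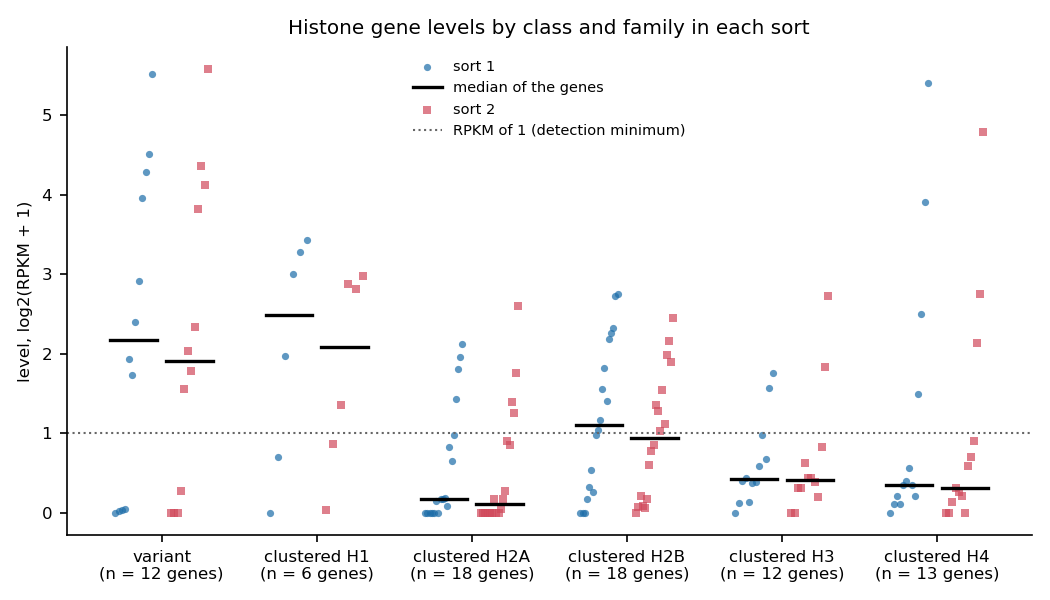
Level of every histone gene, as log2(RPKM + 1), for the variant genes and for the clustered genes by family, with sort 1 as circles, sort 2 as squares and a bar at the median of the genes. The median variant gene lies at 3.55 and 2.78 RPKM, the clustered H1 median lies higher still, and the medians of clustered H2A, H3 and H4 genes lie below the dotted line at an RPKM of 1 in both sorts.

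Among the variant genes, H2afz, which encodes the H2A.Z protein placed at promoters, was the highest. It lay at 45.0 RPKM in sort 1 and 46.9 in sort 2, rank 210 of all genes by mean level. Only 21.8% of its stretches were unique, the lowest share among the variant genes. H3f3a and H3f3b, a pair of genes that encode the same replacement H3 protein, were next. H3f3a stood at 21.8 and 16.4 RPKM and H3f3b at 18.5 and 19.5. Their means of 19.1 ± 3.81 and 19.0 ± 0.735 (SD, n = 2) were closer than the spread of H3f3a, and which of them was higher changed between the sorts. H2afy, the macroH2A gene, followed at 14.5 and 13.2 RPKM.

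The next variant genes were lower. H2afx encodes the H2A protein that is phosphorylated at DNA breaks, and it stood at 6.56 RPKM in sort 1 and 4.06 in sort 2. H1f0, a linker histone known from differentiated cells that no longer divide, stood at 4.27 and 2.44. H2afv, the second H2A.Z gene, was at 2.32 and 3.12, and H2afj, a replacement H2A gene, at 2.84 and 1.94. The order of H2afv and H2afj turned between the sorts, and their means of 2.72 ± 0.560 and 2.39 ± 0.634 (SD, n = 2) overlapped.

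The remaining 4 variant genes were at or near 0. H2afy2, a second macroH2A gene, had 2 reads in sort 1 and 16 in sort 2. H1fx, a linker histone, and H2afy3 each had 1 read in sort 1 and none in sort 2. H2afb1, whose row carries an accession that GENCODE lists under H2al2a, had no read in either library, which allows at most 3 reads per library, or 0.297 and 0.324 CPM. Such limits, and the intervals given for shares, reflect counting error alone, because without molecular identifiers several reads can stem from 1 molecule. H2afy2 lies over Aifm2 on the other strand by 614 bases (81 and 78 reads for Aifm2), and without a stated strand setting their reads cannot be told apart.

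Clustered levels were carried by few genes. The 5 clustered genes with the most reads held 54.5% of all clustered reads in sort 1 and 53.7% in sort 2, and the first 15 held 85.2% and 85.7%. Clustered genes together took 4351 reads, or 0.0431% of the table (95% Wilson interval 0.0419 to 0.0444), in sort 1 and 3481 reads, or 0.0376% (0.0363 to 0.0388), in sort 2. Variant genes took 6464 reads (0.0641%, 0.0625 to 0.0657) and 5987 reads (0.0646%, 0.0630 to 0.0663). These totals include Rn45s, the ribosomal RNA precursor, at 9.07% of reads in sort 1 and 0.963% in sort 2. With Rn45s left out of the total, the clustered share was 0.0474% (0.0460 to 0.0489) and 0.0379% (0.0367 to 0.0392), and the variant share 0.0705% (0.0688 to 0.0722) and 0.0653% (0.0636 to 0.0669). The clustered share was lower in sort 2 beyond counting error with either total, and the variant share only with Rn45s left out.

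Hist1h4d, an H4 gene at chr13:23581602-23581913, was the highest clustered gene. It had 523 reads in sort 1 and 338 in sort 2, or 41.4 and 26.7 RPKM (34.0 ± 10.4, SD, n = 2), rank 342 of all genes. Its deposited row ends before the stem-loop shown above, and its GENCODE transcript runs 770 bases beyond that element. Clustered H4 genes had the largest summed RPKM of the clustered families, 63.7 in sort 1 and 38.5 in sort 2, with 3 of 13 detected. Hist2h4, at chr3:96262970-96263317, was at 14.0 and 5.73 RPKM and Hist1h4c at 4.67 and 3.39, and the H4 median over 13 genes was 0.276 and 0.237. Since the H4 proteins have no counterpart among the variant genes of the rule, H4 has no variant share.

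The clustered linker genes had the highest median of the clustered families. Hist1h1c at chr13:23738807-23740367 was at 9.81 RPKM in sort 1 and 6.86 in sort 2, Hist1h1e at chr13:23620628-23622558 was at 8.71 and 6.07, and Hist1h1b at chr13:21779883-21780554 was at 7.02 and 6.38. All 3 encode somatic H1 proteins, and of the 6 clustered H1 genes 4 were detected. The H1 median was 4.96 and 3.82 RPKM. Hist1h1e and Hist1h1c also held the most reads of all clustered genes, 680 and 475 for Hist1h1e and 620 and 435 for Hist1h1c. Part of the reads of Hist1h1e may be shared, because Hist1h2be overlaps it on the same strand by 497 bases. Hist1h2be has 2 deposited rows with the same counts, 98 and 72 reads each, and its summed level of 1.94 and 1.42 RPKM counts both.

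H2B genes made up 5 of the leading 15. Hist1h2bm, at chr13:21722098-21722478, stood at 5.77 and 4.46 RPKM, Hist1h2bl at 5.64 and 2.71, Hist1h2bg at 4.01 and 3.48, Hist1h2bb at 3.80 and 2.95 and Hist1h2bf at 3.56 and 1.16. They encode near-identical core H2B proteins, and 9 of 18 H2B genes were detected. H2A and H3 contributed fewer. The leading H2A genes were Hist2h2ac at 3.36 and 5.05 RPKM and Hist1h2ab at 2.88 and 2.38, and the leading H3 genes were Hist2h3c1 at 2.38 and 5.64 and Hist1h3d at 1.98 and 2.58. Of 18 clustered H2A genes 4 were detected, and of 12 clustered H3 genes 2.

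**Figure D2:**
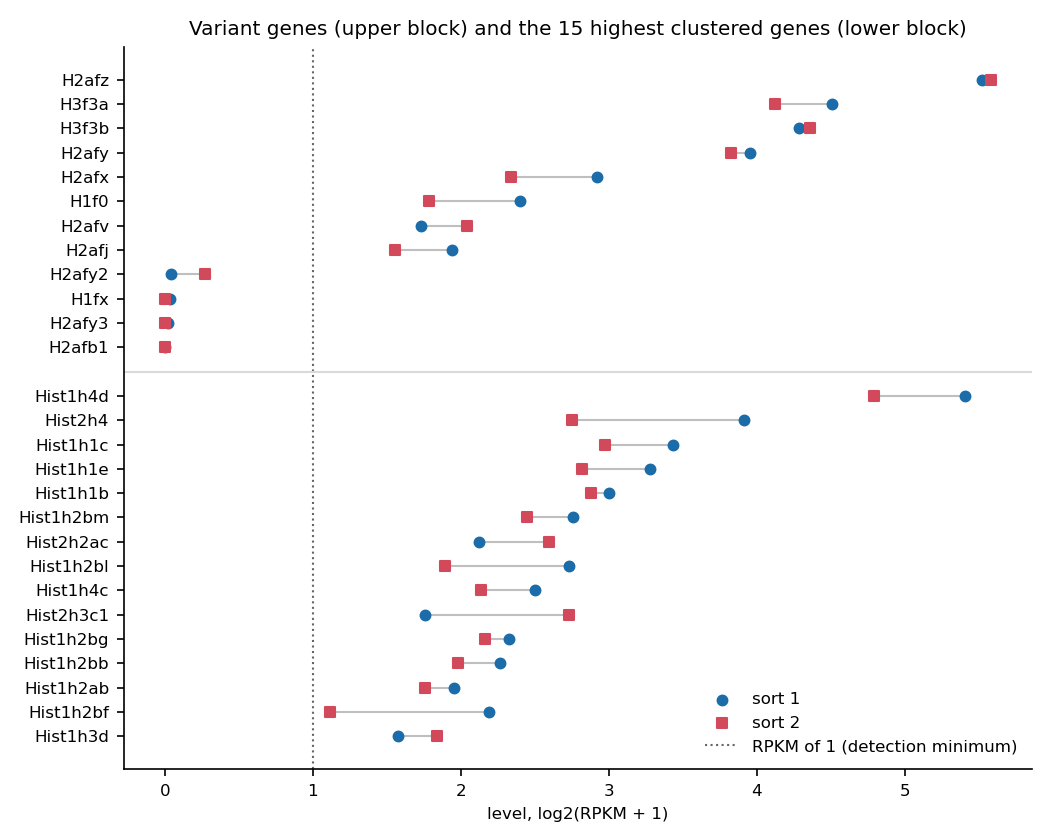
Level in each sort, as log2(RPKM + 1), of the 12 variant genes in the upper block and of the 15 clustered genes with the highest mean RPKM in the lower block, with sort 1 as circles and sort 2 as squares. H2afz at 45.0 and 46.9 RPKM and Hist1h4d at 41.4 and 26.7 lead their blocks. In 12 of the 15 clustered genes the circle lies to the right, a share not computed for all genes.

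The families differed in which class held more of the summed RPKM. Summed over genes, variant genes made up 84.3% of H2A RPKM in sort 1 and 84.6% in sort 2. For H3 the variant share was 83.6% and 76.2%. The step down in sort 2 came with a clustered H3 sum of 7.93 RPKM in sort 1 and 11.2 in sort 2. Within that sum Hist2h3c1 alone went from 2.38 to 5.64 RPKM. For H1 the order was the other way, with variant genes at 12.9% and 10.1%. H2B and H4 have no variant gene in the rule. These sums carry no test, and they are shares of poly(A)-selected RNA. The clustered families also differed in unique stretches, with a median of 97.2% for H1, 19.0% for H2A and 32.9% for H3. H2afz, the highest variant H2A gene, had 21.8%. The part of read assignment in these shares was not tested.

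Outside the leading 15, the other 52 clustered genes reached at most 2.91 RPKM in sort 1 and 1.93 in sort 2, and 26 of them had fewer than 10 reads in both libraries together. There were 8 entries with no read at all, namely Hist1h2aa, Hist1h2ah, Hist1h2ao, Hist1h2ap, Hist1h3h, Hist1h4m, Hist2h2aa1 and the joint entry of Hist1h2bq and Hist1h2br. They are named because they are at 0, a choice made after their values were seen. In 7 of these 8 at most 10.2% of the 50-base stretches were unique, and 4 overlap a near-identical entry. Hist1h2aa, with 97.7% unique stretches, is the exception. An empty row among near-identical genes does not show that the gene is silent.

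Level and uniqueness moved together across the clustered genes. Spearman's rho between the share of unique stretches and mean RPKM was 0.44 over 67 genes, and it was 0.43, 0.48 and 0.49 for stretches of 36, 75 and 100 bases. Of the 23 genes with under 25% unique stretches 3 were detected, against 8 of the 16 genes with at least 75%. The genes are not independent of each other, since they share sequence and library, and the rho values are descriptions. Among the 45 genes with a stem-loop, the number of annotated bases beyond it correlated with reads at a rho of 0.61, with mean RPKM at 0.44 and with the share of unique stretches at 0.68. Of the 23 genes whose transcripts ran at least 100 bases beyond the stem-loop 12 were detected, against 5 of the 22 that ended sooner and 5 of the 22 with no stem-loop. Uniqueness and length beyond the stem-loop rise together, and their parts in the levels cannot be told apart here.

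The poly(A) signal can be read only where the annotation goes past the stop codon, by at least 50 bases in 49 clustered genes. Of these, 16 had the signal, and 5 of them were detected (31.3%), while 33 had none, and 14 of them were detected (42.4%). The other 18 genes, Hist1h1b among them, lack the sequence in which a signal would be searched. Hist2h4, Hist1h1c and Hist2h3c1 were among those with a signal, while Hist1h4d and Hist1h1e had none in the last 50 bases.

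**Figure D3:**
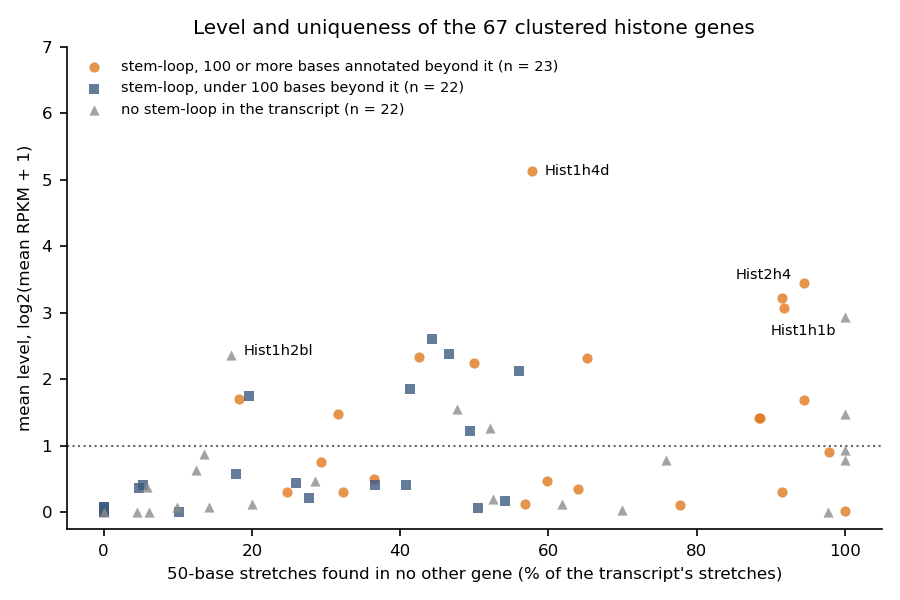
Mean level of the 67 clustered genes, as log2(mean RPKM + 1), against the percentage of unique 50-base stretches. Stretches are those inside the deposited row, unique when no transcript elsewhere held them. Symbols give the annotated sequence beyond the stem-loop. Hist1h4d stands highest at 57.8% unique stretches, and of the 23 genes below 25% only 3 were detected.

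Neighbouring genes that start back to back were compared next. Within 1000 bases, 16 such pairings of clustered genes were found, with 168 to 700 bases between the rows, of which 4 combine the empty joint entry with near-identical partners that are also at 0. Both genes were detected in 2 pairings, 1 gene in 5 and neither in 9. Hist1h2ae and Hist1h2bg, an H2A and an H2B gene with 180 bases between them, had 4 and 1 reads against 100 and 87, with 56.8% and 49.9% unique stretches. This and the other pairings named here were chosen after their values were seen. Hist1h2ac and Hist1h2bc, 240 bases apart, were both detected, at 1.69 and 1.64 RPKM against 1.25 and 1.56. Hist2h2ac and Hist2h2be, 277 bases apart in the Hist2 cluster, were both higher in sort 2, with 53 and 80 reads for Hist2h2ac and 174 and 205 for Hist2h2be.

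Promoter sequences, 250 bases before to 50 bases after the start, were taken from RefSeq on GRCm38 for 61 clustered and 10 variant genes. The following belong to Hist1h2bg, whose partner had at most 4 reads, to Hist2h2ac, whose partner was read as well, and to Hist1h4d, the leading gene. Capitals mark the CCAAT box, the TATA box TATAAA and the octamer ATTTGCAT, which Pou2f1 binds, each searched on both strands.
Hist1h2bg: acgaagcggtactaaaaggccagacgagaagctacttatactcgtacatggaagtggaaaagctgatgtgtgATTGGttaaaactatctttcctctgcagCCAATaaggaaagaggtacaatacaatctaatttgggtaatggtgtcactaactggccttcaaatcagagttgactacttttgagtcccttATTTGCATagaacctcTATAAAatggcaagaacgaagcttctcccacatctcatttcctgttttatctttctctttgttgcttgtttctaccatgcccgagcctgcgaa
Hist2h2ac: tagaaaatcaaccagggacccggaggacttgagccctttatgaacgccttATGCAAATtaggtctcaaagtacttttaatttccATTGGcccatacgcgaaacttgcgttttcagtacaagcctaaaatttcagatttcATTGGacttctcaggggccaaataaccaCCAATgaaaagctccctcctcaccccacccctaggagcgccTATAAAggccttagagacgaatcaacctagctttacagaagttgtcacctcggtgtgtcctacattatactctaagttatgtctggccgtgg
Hist1h4d: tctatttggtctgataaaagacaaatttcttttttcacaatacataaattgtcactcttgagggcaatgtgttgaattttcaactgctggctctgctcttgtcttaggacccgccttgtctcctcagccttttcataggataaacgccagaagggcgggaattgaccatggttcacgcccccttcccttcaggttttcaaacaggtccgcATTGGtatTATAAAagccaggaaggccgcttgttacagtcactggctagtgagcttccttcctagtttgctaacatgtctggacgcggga

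These windows are chr13:23571150-23571449 on the plus strand, chr3:96220831-96221130 on the minus strand and chr13:23581318-23581617 on the plus strand. CCAAT was in 52 of 61 clustered promoters (85.2%), against 40.9% of the 26953 other genes in the promoter table, and it was in every H1, H2A, H2B and H3 promoter but in only 3 of 12 H4 promoters. TATAAA was in 57.4% of clustered promoters against 15.6% of other genes. The octamer was in 7 of 18 H2A and 7 of 15 H2B promoters and in none of the H1, H3 or H4 promoters, against 1.92% of other genes. Among the variant genes CCAAT was in 6 of 10, TATAAA in 1 and the octamer in 1. The median H2B gene with the octamer stood at 1.94 and 1.42 RPKM, and without it at 0.611 and 0.614, with 4 of 7 and 3 of 8 detected. That median with the octamer is Hist1h2be itself, whose summed level counts 2 rows with the same reads. When the highest single row stood for each gene, 21 rather than 22 clustered genes were detected. The H2B contrast therefore rests in part on counting the same reads again. For H2A the medians were 0.968 and 0.804 with the octamer and 0.112 and 0 without it, with 3 of 7 and 1 of 11 detected. Unique stretches differed too, since all 5 clustered H2A genes with 0% unique stretches lacked the octamer. Hist1h2aa, Hist1h2ac and Hist3h2a, which have it, were at 97.7%, 88.4% and 97.8%. Against this, Hist1h2ah with the octamer was at 4.44% and Hist2h2ab without it at 75.9%. The part of uniqueness in these medians was not tested. A match is a run of letters and not a bound site. Windows of genes that start back to back can overlap, so the same site can count for both genes of a pair. Hist1h2ae, whose row begins 180 bases from that of Hist1h2bg, has the octamer too, and this may be the same site.

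Levels were similar in the 2 sorts across members. Over the 67 clustered genes, log2(RPKM + 1) in sort 1 and sort 2 correlated with a Pearson r of 0.95 and a Spearman rho of 0.91, as a description across genes. Among the 22 detected clustered genes the SD over the sorts was 23.7% of the mean in the median gene, and among the 8 detected variant genes 20.3%.

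Single genes were compared between the sorts by a two-sided exact binomial test of their counts, after scaling by TMM, with Benjamini-Hochberg adjustment over the 12347 genes with at least 10 reads. The test compares 2 libraries with sampling noise and not conditions. With a threshold of 0.05 on the adjusted p and of 2 on the fold, it called 8 of the 50 members tested, 7 of 41 clustered and 1 of 9 variant genes, beside 8.41% of all genes tested. There were 3 members higher in sort 2 (background 3.18%) and 5 higher in sort 1 (5.22%). At any fold 22 of 50 members passed, beside 44.4% of all genes tested. With edgeR's exact test and a common dispersion estimated from both libraries, no member was called, beside 0.267% of all genes. The lowest adjusted p of a member was 0.349, and 6 of 50 had an unadjusted p under 0.05, a share not computed for all genes. This dispersion takes the sorts as replicates, so the difference under test counts as noise. Absence of a call here is therefore no check on the binomial calls. At a fold of at least 4 the binomial test called 3 members (2.65% of all genes), at a fold of at least 1.5 it called 13 (18.3%), and with at least 20 reads required it called 5 (7.42%).

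Hist2h3c1, an H3 gene at chr3:96246685-96248509, was higher in sort 2, with 176 reads in sort 1 and 418 in sort 2. The scaled counts differed 2.49-fold, with an exact binomial adjusted p of 6.8e-25, the lowest of the members called at a fold of 2. Its neighbour in the Hist2 cluster, Hist2h4, went the other way, with 198 and 81 reads, 2.33-fold higher in sort 1 (exact binomial adjusted p = 2.8e-10). The Hist2 cluster, at chr3:96219916-96270192, therefore held called genes in both directions. These are the called members with over 100 reads in a sort.

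The other called members had few reads. Hist1h2bf (55 and 18 reads, 2.91-fold) and Hist1h2bh (39 and 16, 2.33-fold), both H2B genes, were higher in sort 1. So were Hist1h3i, an H3 gene (19 and 3, 6.04-fold), and Hist1h2ag, an H2A gene (15 and 4, 3.58-fold). Hist1h3g (2 and 11 reads, 5.77-fold), the H3 gene with the unusual loop shown above, was higher in sort 2, as was the variant gene H2afy2 (2 and 16, 8.39-fold). Their exact binomial adjusted p-values ran from 0.00015 for Hist1h2bf to 0.046 for Hist1h2ag. Unique stretches made up 12.4% to 40.8% of the 5 clustered genes in this paragraph, so a read may belong to a relative.

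**Figure D4:**
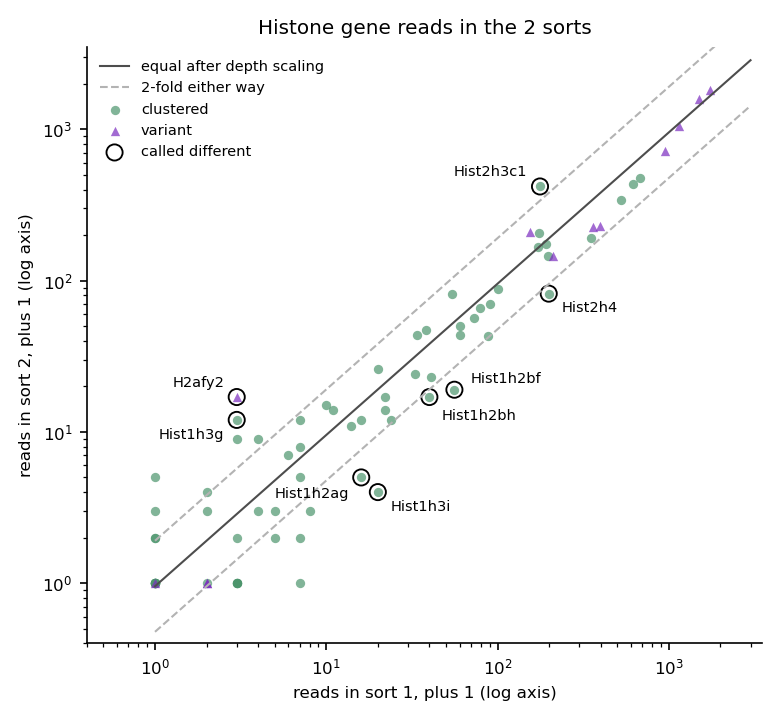
Reads plus 1 in sort 1 and sort 2 on log axes for the 79 members, with clustered genes as circles, variant genes as triangles, a line of equal levels after TMM scaling, dashed lines 2-fold to either side and rings around the 8 called genes. Hist2h3c1 (176 and 418 reads) and Hist2h4 (198 and 81) lie outside the dashed lines at high counts, and the other 6 have at most 55 reads in a sort.

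Clustered genes leaned toward sort 1 as a group. The log2 ratio of scaled reads, sort 2 over sort 1, had a median of -0.29 over the 59 clustered genes with reads and -0.29 over the 41 tested, beside -0.00031 over all 12347 genes tested. Of the 41, 26 were higher in sort 1, beside 6180 of all 12347 genes tested. Of the 22 detected clustered genes 17 had the higher RPKM in sort 1, a share not computed for all genes. Deposited RPKM is not scaled by TMM, and its mean over all genes was 3.60 in sort 1 and 3.36 in sort 2. The lean toward sort 1 was not shared by every family. Among tested genes the median was -0.44 for H1, -0.19 for H2A, -0.29 for H2B and -0.38 for H4, but 0.23 for H3. Of 10 tested H3 genes 6 were higher in sort 2. Summed clustered H3 reads went from 293 to 528, of which Hist2h3c1 alone had 176 and 418. The Hist2 cluster had a median of 0.0045, with 4 tested genes to either side. For variant genes the median was -0.34 over 11 genes with reads but -0.068 over the 9 tested. Transcript GC content moved with these ratios across all genes, with a Spearman rho of -0.54 over 8680 genes with at least 100 reads, and the median GC content was 58.1% for clustered, 52.1% for variant and 50.1% for all tested genes. After correction for GC content, an alternative added after the data were seen, the clustered median was -0.072 and 10 members were called, 5 in each direction (6.8% of all genes). Within the 50 tested members GC content and the ratio correlated weakly, at a rho of -0.08. Markers of other cells also differed between the libraries. Late neutrophil markers were higher in sort 1 for 7 of 9 genes (median log2 ratio -0.23, summed level 4217 and 3943 RPKM), as were all 6 monocyte and macrophage markers (-0.24, 69.8 and 58.0 RPKM). Of these 6, the 2 called were Cd163 with 163 and 35 reads and C1qa with 16 and 0. Ly6c2, Mrc1 and Vcam1 had exact binomial adjusted p-values of 0.054, 0.30 and 0.64. Eosinophil markers were higher in sort 2 for 9 of 10 genes (0.24, 3482 and 4321 RPKM), granulocyte precursor markers for 5 of 5 (0.46, 253 and 292 RPKM) and erythroid markers for 8 of 9 (0.41, 4.63 and 6.96 RPKM). Among tested T and NK cell markers 4 of 5 were higher in sort 1 (-0.43). B and plasma cell markers had 3 to either side (-0.11), and 3 of 4 tested stem and progenitor markers were higher in sort 2 (0.078). Over all genes tested, 6180 were higher in sort 1 and 6167 in sort 2. The part of these markers and of Rn45s in the ratios was not tested.

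The machinery that makes and ends histone messages was present. Beside 30.2% of all genes in the tables, 20 of 23 genes for histone transcription and 3-prime processing were detected. Their median was 2.82 RPKM in sort 1 and 2.92 in sort 2. Slbp, which binds the stem-loop, was at 3.95 and 4.03 RPKM, and Npat, the transcriptional coactivator of the clusters, at 1.33 and 1.55. The highest were Cpsf2 at 11.5 and 11.1, the transcription factor Yy1 at 9.04 and 8.45, Cpsf3 at 9.28 and 7.06 (with Cpsf2, a subunit of the complex that cuts histone messages) and the Sm protein gene Snrpg at 6.66 and 8.08. Only 1 of the 23 was called, beside 8.41% of all genes tested. This was Zfp473, a component of the histone cleavage machinery, with 29 and 12 reads, higher in sort 1 (exact binomial adjusted p = 0.031).

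The tables held 25 genes of histone chaperones and deposition. Detection was reached by 20 of them, beside 30.2% of all genes, and the list's median was 3.89 RPKM in sort 1 and 3.19 in sort 2. Npm1, a nucleolar chaperone, stood at 37.5 and 52.8, Atrx, which places the replacement H3, at 12.7 and 17.1, Anp32e, which removes H2A.Z, at 9.86 and 13.4, and Nap1l4, an H2A and H2B chaperone, at 6.78 and 6.19. Only 1 of the 25 was called, beside 8.41% of all genes tested. This was Vps72, which helps to deposit H2A.Z, with 120 and 45 reads, higher in sort 1 (exact binomial adjusted p = 1.6e-07). In edgeR's exact test the adjusted p was 0.491 for Vps72 and 0.961 for Zfp473. Because that test takes the difference between the sorts as noise, this is no check on either call.

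Genes of DNA replication and division were present beside the histone genes. Beside 30.2% of all genes in the tables, 17 of 24 S phase genes were detected. Their median was 2.23 RPKM in sort 1 and 2.45 in sort 2, and the highest were E2f2 (11.9 and 7.62), Pcna (8.07 and 8.76), Ccna2 (5.06 and 7.15) and Rrm2 (4.15 and 5.70). Only 1 of the 24 was called, beside 8.41% of all genes tested. This was E2f1, with 153 and 72 reads, higher in sort 1 (exact binomial adjusted p = 3.0e-06, and 0.823 in edgeR's exact test). All 12 G2 and mitosis genes were detected, and none was called. Their median was 2.02 and 2.17 RPKM, and the highest were Mki67 (21.6 and 38.0), Top2a (10.7 and 15.4), Ccnb2 (4.15 and 6.44) and Kif11 (4.18 and 4.16). Median log2 ratios, sort 2 over sort 1, were 0.11 for the S phase list and 0.21 for the mitosis list, opposite in sign to that of the clustered genes. Cenpa, the centromeric H3 that the symbol rule leaves out, was at 4.88 and 6.82 RPKM. In bulk RNA, the share of cells in cycle and the histone RNA per cell cannot be told apart. Selection on poly(A) keeps RNA with a tail, and its part in the clustered levels was not tested.

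The sort was checked against marker genes. All 10 eosinophil markers were detected, at mean levels from 25.8 to 1347 RPKM, with Ccr3 at 114 and 118 RPKM and Siglec5, the tables' symbol for the SiglecF gene, at 32.1 and 32.2. All 9 late neutrophil markers (16.1 to 2380 RPKM) and all 5 granulocyte precursor markers (3.35 to 167) were detected as well. Detected were also 4 of 6 monocyte and macrophage, 3 of 5 stem and progenitor, 2 of 6 B and plasma cell, 1 of 7 T and NK cell and 1 of 9 erythroid markers, with the erythroid genes at 0.0888 to 2.10 RPKM. The part of other cells in the histone levels was not tested.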

How the data were processed

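Poly(A) RNA of eosinophils from 2 independent sorts was sequenced with stranded dUTP libraries, per the labels' protocols. Reads were aligned with STAR 2.4.0c to mm10, per the submitters' processing notes. The sources used here state neither the counting program nor its strand setting, nor what became of reads with several alignments. For 26099 rows of RefSeq transcripts the authors deposited whole-number counts and RPKM values, and both were summed per gene symbol. The tables held 10087743 and 9264150 reads.

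The members and lists were chosen with earlier results of these data known. Named genes were every variant gene, the 15 clustered genes with the highest mean RPKM and each clustered gene called between the sorts, and of each pathway list the 4 highest members with Slbp, Npat and Cenpa. Genes named beside these, namely called genes of the lists, markers, overlapping genes, genes of neighbouring pairs, 1 gene with no stop codon and those with no read, were chosen after their values were seen. Libraries were scaled by TMM in edgeR 4.0.16 (R 4.3.3). The binomial test ran in scipy 1.17.1, and edgeR's quasi-likelihood test could not be fitted to 1 group. On simulated counts with Poisson noise, which the binomial test assumes, that test recovered 199 of 200 genes changed 4-fold and called 3 of 12144 unchanged genes. The changed genes were drawn only from genes with higher counts, so recovery at low counts was not tested. The simulation checks the code and not the error rate in these libraries. Log2 ratios used a prior count of 2, and log2 levels a pseudocount of 1. The binomial p-values set a difference between these libraries against counting error alone and do not measure the spread between sorts. Nothing in the labels says that the sorts came from separate animals, so such differences may be technical.

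Stem-loops, poly(A) signals, GC content and unique stretches came from GENCODE vM21 transcripts, matched by RefSeq accession for 77 members and by symbol for 2, and promoters from RefSeq. Alternatives were other RPKM and count minimums, pseudocounts, folds and scalings, DESeq2 1.42.0 size factors, edgeR's exact test and leaving out each sort. A GC correction, a restriction to members with unique sequence and the 50-base minimum after the stop codon for poly(A) signals were added after the data were seen.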

Additional observations from a re-analysis of the deposited data

How the results depend on the processing

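With 2 libraries of 1 group, no difference between sorts has a replicate check, and low counts limit most clustered genes. Of the recomputed summary values 49 stayed close (counts within 1.5 times, levels and shares within 1 SD over the sorts, median log2 ratios within 0.1) and 23 moved. Some of these outcomes were fixed in advance. With 2 sorts, leaving 1 out always keeps a level, a share or the level difference within 1 SD. Each variant gene has 1 row, so taking the highest single row could not change the variant values. CPM is another unit than RPKM. The tally is therefore no measure of how firm the results are. For the folds of the 8 called genes, 46 recomputed values held the call, 18 lost it and none reversed. A call at a fold of at least 2 necessarily holds at 1.5. Leaving out a sort gives a gene the level of the other sort, which was over 1.5 times from the mean for 7 of the 26 named genes with reads: Hist2h4, Hist2h3c1, Hist1h2bl, Hist1h2bf, H2afy2, H1fx and H2afy3. The clustered count detected, 22 of 67, was 29 at an RPKM of at least 0.5, where the share of all genes was not computed. It was 30 at a CPM of at least 1 in both sorts, reached by 10936 of all 23343 genes. At an RPKM of at least 5 it was 5 (11.6% of all genes). Among members with at least 50% unique stretches it was 12 of 28 (42.9%). The variant count, 8, was 4 at an RPKM of at least 5. The clustered median of 0.407 RPKM was 1.90 as a mean over members, 0.986 in CPM and 0.806 among members with unique sequence. The variant median of 3.17 was 9.32 as a mean and 25.8 in CPM. The variant share of reads, 0.0644%, was 0.0679% without Rn45s. The variant minus clustered difference of 1.55 on the log2 scale was 2.67 with a pseudocount of 0.1, 1.27 as a mean of log2 values, 3.72 in CPM, which is not per length, and 1.01 among members with unique sequence. It was positive in all alternatives run.

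The 7 clustered calls were 2 at a fold of at least 4 (2.65% of all genes) and 0 with edgeR's exact test (5 at an unadjusted p under 0.05). The 1 variant call was 0 with at least 20 reads (7.42% of all genes called) and 3 at a fold of at least 1.5 (18.3%). With edgeR's exact test it was 0 (1 at an unadjusted p under 0.05). The share of all genes at that unadjusted p was not computed. The clustered median log2 ratio of -0.29 was -0.13 from deposited RPKM and -0.072 after GC correction. The variant median of -0.34 was -0.033 from deposited RPKM, -0.068 with at least 10 reads and -0.16 after GC correction. Both stayed negative in all alternatives run. The cause of these shifts was not tested.

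Leaving out each sort in turn gave a clustered median of 0.360 to 0.454 RPKM, a variant median of 2.78 to 3.55 RPKM, a difference of 1.47 to 1.63, and 22 to 24 clustered and 8 variant genes detected. No paired analysis was possible because there was 1 group.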
